A study of Mus musculus with 15 samples.

Results

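Prom1 and 6 other markers of liver progenitor cells and bile ducts (Epcam, Sox9, Spp1, Krt19, Krt7 and Cd24a) were followed in 15 Affymetrix arrays of mouse liver. A gene's value was the average over the probe sets whose only gene symbol was that gene. Of the 7 markers, 6 were measured in this way, among 12393 genes in all, and no probe set used here had Spp1 as its only symbol. There were 5 arrays from tumors of MAT1A knockout mice, classed by histopathology as hepatocellular carcinoma, 5 arrays from peritumoral liver of MAT1A knockout mice and 5 arrays from healthy wild type liver. All mice had the C57B6SJL background and were 15 months old, and none had received a treatment. The knockout mice lack the gene of methionine adenosyltransferase, the enzyme that makes S-adenosylmethionine in the adult liver. The sex of the mice, and whether a tumor and a peritumoral sample of equal number came from the same mouse, are not given in the labels. Values are log2 values from RMA, so that a difference of 1 is a doubling, and arrays are named by their group and number.

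Adult liver consists mainly of hepatocytes, and the bile ducts are lined by another epithelial cell, the cholangiocyte. After chronic injury, cells with features of ducts and of immature hepatocytes appear around the portal tracts, and these progenitor cells carry markers of the duct lining. Prom1 encodes CD133, a membrane protein of cell protrusions that is used to isolate progenitor cells and tumor cells. Epcam encodes an adhesion molecule of epithelia that adult hepatocytes lack. Cd24a encodes a small glycoprotein anchored in the membrane, carried by ducts and progenitor cells and also by granulocytes and immature lymphocytes. Sox9 is a transcription factor of the ducts, and Krt19 and Krt7 are keratins of their cytoskeleton. The same RNA level in bulk tissue can come from more cells of a type or from more RNA per cell, and these cannot be told apart here.

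The state of the arrays bears on these values. Mat1a, the deleted gene, was at 8.33 to 10.50 in tumors, at 8.84 to 11.44 in peritumoral liver and at 12.25 to 12.72 in wild type liver, so that every knockout array lay below every wild type array (adjusted p in limma against wild type 0.0165 for tumors and 0.0598 for peritumoral liver). The files do not say whether its probe set lies inside the deleted part. The 9 hepatocyte markers had mean levels of 12.28 to 12.94 in tumors, 12.86 to 13.05 in peritumoral liver and 12.86 to 13.12 in wild type liver. Several arrays stood apart. In the correlation across genes with the other arrays of the group, tumors 2 and 5 averaged 0.929 and 0.931, peritumoral 2 averaged 0.938, and wild type 4 averaged 0.963, where the other wild type arrays averaged 0.981 to 0.984. In wild type 4, all 7 measured granulocyte markers were over 1 above every other wild type array. The 4 measured sex-linked genes, Xist, Eif2s3y, Kdm5d and Uty, had mean levels of 3.62 to 4.43 in tumors, 4.63 to 5.00 in peritumoral liver and 4.79 to 5.06 in wild type liver. Xist was low in all groups, at 3.33 to 3.72 in tumors, 3.27 to 3.52 in peritumoral liver and 3.50 to 3.81 in wild type liver. Of the 4 genes, Eif2s3y, a Y-linked translation factor, was at 7.04 in tumor 3 and at 4.02 to 5.66 in the other tumors. It was at 7.46 to 8.30 in peritumoral liver and 7.75 to 8.32 in wild type liver. Eif2s3y was the 1 of 4 to pass, falling in tumors against wild type liver (adjusted p = 0.0468 in limma). Uty was at 3.29 to 3.72 in tumors, 3.77 to 4.26 in peritumoral liver and 3.79 to 4.17 in wild type liver. Kdm5d was at 3.26 to 3.69, 3.49 to 3.99 and 3.75 to 4.22. At an unadjusted p under 0.05 in limma, 3 of the 4 were lower in tumors against wild type liver, as were 9.96% of all genes. The part of these differences in the marker results was not tested.

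Prom1 was the one marker that was found to be upregulated in tumors, and its start sites are shown first because the result turns on this gene. In RefSeq (GRCm38.p6) the 250 bases before a start were available for 2 Prom1 starts and for Epcam and Krt7, which were both highest in tumor 3. Capitals mark matches to the AP-1 motif (TGANTCA, read on both strands), the binding sequence of the Fos and Jun factors.
Prom1, upstream start, chr5:44101737-44101986, minus strand: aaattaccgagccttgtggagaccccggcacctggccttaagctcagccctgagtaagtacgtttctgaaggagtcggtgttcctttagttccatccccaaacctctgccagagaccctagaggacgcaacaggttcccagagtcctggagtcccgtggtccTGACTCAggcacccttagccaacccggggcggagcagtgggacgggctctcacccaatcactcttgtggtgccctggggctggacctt
Prom1, downstream start, chr5:44094769-44095018, minus strand: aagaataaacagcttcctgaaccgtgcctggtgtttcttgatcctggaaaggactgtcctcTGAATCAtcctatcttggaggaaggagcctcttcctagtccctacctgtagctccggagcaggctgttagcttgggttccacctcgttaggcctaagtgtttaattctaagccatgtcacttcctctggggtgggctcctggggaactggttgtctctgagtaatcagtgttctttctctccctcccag
Epcam, chr17:87635729-87635978, plus strand: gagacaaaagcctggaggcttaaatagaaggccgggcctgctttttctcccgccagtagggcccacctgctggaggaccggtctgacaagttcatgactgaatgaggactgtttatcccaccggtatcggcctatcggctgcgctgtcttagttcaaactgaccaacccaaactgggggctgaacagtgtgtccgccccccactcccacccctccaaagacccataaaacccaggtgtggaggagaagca
Krt7, chr15:101412153-101412402, plus strand: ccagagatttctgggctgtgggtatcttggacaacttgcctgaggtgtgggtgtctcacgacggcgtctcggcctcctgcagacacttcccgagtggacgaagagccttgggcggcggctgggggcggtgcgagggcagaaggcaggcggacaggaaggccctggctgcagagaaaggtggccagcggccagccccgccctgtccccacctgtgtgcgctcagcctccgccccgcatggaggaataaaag
Each Prom1 window held 1 match to TGANTCA, and the windows of Epcam and Krt7 held none. Of all 32851 promoters of the table, 6.75% had a match in windows of this length. None of the 4 windows held the letters searched for SOX factors (ACAATG, in 10.7% of promoters), TEAD factors (GGAATG, in 12.6%) or HNF1 (GTTAAT, in 6.43%), on either strand. A match describes the letters of the window and is not evidence of binding.

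Prom1 was at 7.83, 6.99, 7.28, 7.09 and 7.60 in tumors 1 to 5, at 3.74, 4.89, 4.23, 5.25 and 4.68 in peritumoral samples 1 to 5, and at 3.73, 3.80, 3.71, 6.39 and 3.90 in wild type samples 1 to 5. All 5 tumors lay above all 10 other arrays, and wild type 4 was the highest of these 10. Prom1 averaged 7.36 ± 0.35 in tumors, 4.56 ± 0.59 in peritumoral liver and 4.30 ± 1.17 in wild type liver (SD, n = 5 each). The wild type SD rests on wild type 4, since the other 4 arrays of that group lay between 3.71 and 3.90.

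Against wild type liver, Prom1 rose in tumors by 3.05 (SE 0.49, 95% interval 1.97 to 4.13), which is 8.29-fold (3.93 to 17.5), with an adjusted p of 0.0346 in limma over all 12393 genes. It was 1 of 6 measured markers to pass in this comparison, where 0.339% of all genes rose and 0.226% fell. All 5 tumors were above all 5 wild type arrays for Prom1, as for 2.23% of all genes. Without wild type 4 the difference was 3.57 (SE 0.17, adjusted p = 2.93e-05), while without tumor 1, tumor 4, or wild type 1, 2, 3 or 5 it was 2.90 to 3.12 and the adjusted p was 0.0702 to 0.129.

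Against peritumoral liver, Prom1 rose in tumors by 2.80 (SE 0.28, 95% interval 2.17 to 3.42), which is 6.95-fold (4.51 to 10.7), with an adjusted p of 0.0176 in limma. Of all genes, 0.0161% rose and 0% fell in this comparison, and all 5 tumors were above all 5 peritumoral arrays for Prom1 as for 1.22% of genes. The differences between samples of equal number were 4.09, 2.10, 3.04, 1.83 and 2.92, and each was above 0. With the sample number as a block the difference of 2.80 had an SE of 0.32 and an adjusted p of 0.0760, so that the call was lost. It was also lost without tumor 1, tumor 4, peritumoral 3 or peritumoral 5, where the difference was 2.68 to 2.86 and the adjusted p 0.0767 to 0.101.

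**Figure D1:**
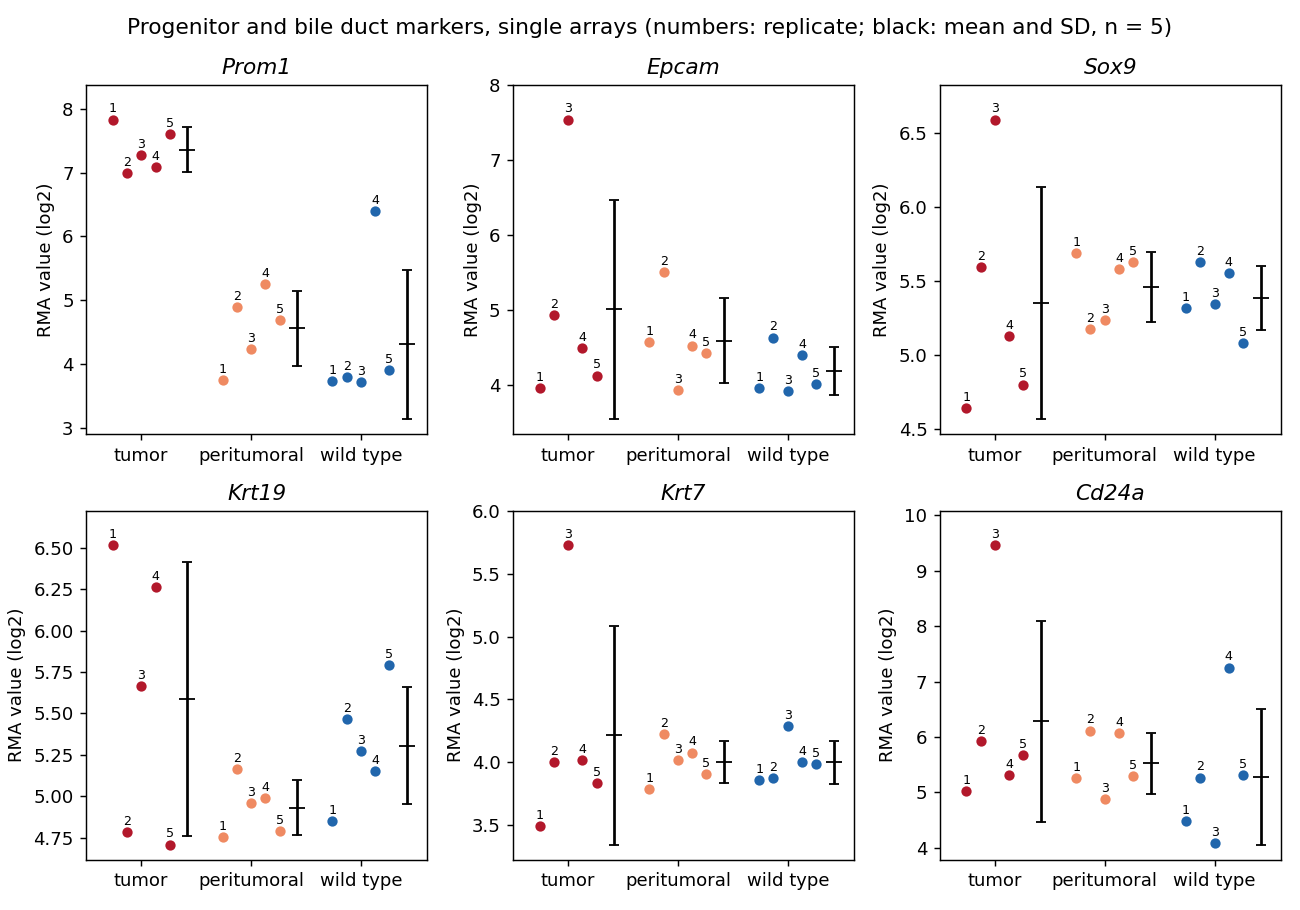
RMA values (log2) of the 6 measured markers in tumors, peritumoral liver and wild type liver, with 1 point per array (the number is the replicate) and the mean and SD (n = 5) in black beside each group. Prom1 is at 6.99 or more in all 5 tumors, Epcam, Sox9, Krt7 and Cd24a are highest in tumor 3, and Krt19 is highest in tumors 1 and 4.

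Between peritumoral and wild type liver, no marker passed the test, and of all genes 0.0403% passed in either direction. Prom1 differed by 0.26 (SE 0.52, 95% interval -0.89 to 1.40, adjusted p = 0.814 in limma). Peritumoral 2, 3, 4 and 5 lay between 4.23 and 5.25, above the 4 wild type arrays other than number 4, and peritumoral 1, at 3.74, lay among them. Without wild type 4 the difference was 0.78 (SE 0.27, adjusted p = 0.129).

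Granulocyte markers varied among the same arrays. The mean of the 7 granulocyte markers was 4.82 to 6.20 in tumors, a range that overlapped those of the other groups, while the Prom1 values of tumors were above all other arrays. Among peritumoral arrays the mean was 7.41, 6.65 and 6.59 in numbers 4, 2 and 5, which had Prom1 at 5.25, 4.89 and 4.68, and 5.32 and 4.88 in numbers 1 and 3, which had Prom1 at 3.74 and 4.23. It was 10.70 in wild type 4 and 4.92 to 5.51 in the other wild type arrays. Over the 10 non-tumor arrays, Pearson's r with the granulocyte mean was 0.952 for Prom1 and 0.867 for Cd24a. Without wild type 4 these were 0.891 and 0.702. For the other measured markers, r over the 10 arrays was -0.090 to 0.358. Without wild type 4 it was 0.616 for Epcam, 0.363 for Sox9, 0.310 for Krt7 and -0.257 for Krt19. The order of arrays by Prom1 and by the granulocyte mean was not the same throughout. Peritumoral 3 had the lowest granulocyte mean of non-tumor liver with Prom1 above peritumoral 1. Wild type 5 had the lowest granulocyte mean of its group with Prom1, at 3.90, above wild type 1, 2 and 3. S100a8, a calcium-binding protein of granulocytes, was at 6.43 to 9.82 in tumors, 5.63 to 10.34 in peritumoral liver, 12.92 in wild type 4 and 5.92 to 7.29 in the other wild type arrays. Prom1 and Cd24a were the markers for which wild type 4 stood over 1 above each other wild type array (2 of 6 markers, where this held for 2.11% of all genes). The part of granulocytes in the Prom1 values of wild type and peritumoral liver was not tested.

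**Figure D2:**
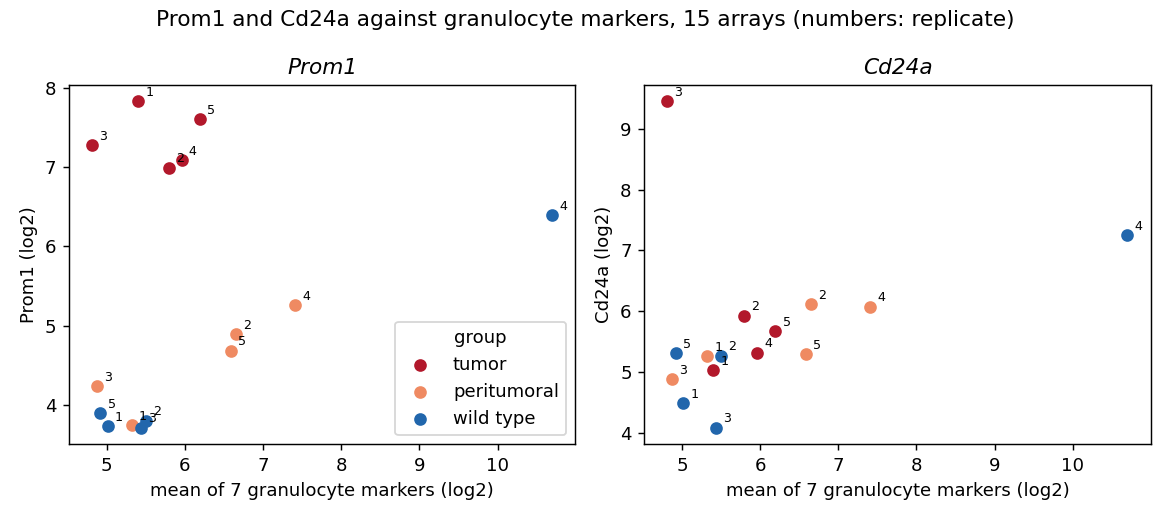
Prom1 (left) and Cd24a (right), both as log2 values, against the mean log2 value of 7 granulocyte markers in the 15 arrays, colored by group and numbered by replicate. The 5 tumors have Prom1 at 6.99 to 7.83 with granulocyte means of 4.82 to 6.20, and wild type 4 stands at 10.70 on the horizontal axis.

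Cd24a was high in 1 tumor and in 1 wild type liver. It was at 5.03, 5.93, 9.46, 5.32 and 5.67 in tumors 1 to 5, at 5.26, 6.11, 4.88, 6.07 and 5.29 in peritumoral samples 1 to 5, and at 4.48, 5.27, 4.08, 7.25 and 5.31 in wild type samples 1 to 5. Tumor 3 was the highest array and wild type 4 the next, and the other 4 tumors lay within the range of peritumoral and wild type liver. All 3 probe sets of Cd24a had tumor 3 highest, at 9.82, 7.92 and 10.63, and wild type 4 next, at 7.58, 5.94 and 8.23. Against wild type liver the difference in tumors was 1.00 (SE 0.86, 95% interval -0.91 to 2.92, adjusted p = 0.563 in limma), and against peritumoral liver it was 0.76 (SE 0.76, -0.93 to 2.44, adjusted p = 0.819). Without tumor 3 the difference from peritumoral liver was -0.04. Peritumoral against wild type liver gave 0.25 (SE 0.53, -0.92 to 1.41, adjusted p = 0.824). The intervals leave room for differences of either sign.

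Epcam was at 3.96, 4.94, 7.54, 4.49 and 4.13 in tumors 1 to 5, at 4.57, 5.50, 3.93, 4.53 and 4.43 in peritumoral samples 1 to 5, and at 3.96, 4.63, 3.92, 4.40 and 4.02 in wild type samples 1 to 5. Tumor 3 was far above the next array, peritumoral 2, and the other tumors lay within the range of the other groups. The difference from wild type liver was 0.82 in tumors (SE 0.59, 95% interval -0.49 to 2.14, adjusted p = 0.488 in limma) and 0.41 in peritumoral liver (SE 0.26, -0.17 to 0.99, adjusted p = 0.457). Tumors against peritumoral liver differed by 0.42 (SE 0.63, -0.98 to 1.82, adjusted p = 0.899), and by -0.21 without tumor 3.

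Sox9 was at 4.64, 5.59, 6.59, 5.13 and 4.80 in tumors 1 to 5, at 5.69, 5.17, 5.23, 5.58 and 5.63 in peritumoral samples 1 to 5, and at 5.32, 5.63, 5.34, 5.56 and 5.08 in wild type samples 1 to 5. Tumor 3 was again the highest of the 15 arrays, while tumors 1 and 5 were the lowest, so that the group means were nearly equal. The difference was -0.03 for tumors against wild type liver (SE 0.33, 95% interval -0.76 to 0.69, adjusted p = 0.967 in limma), -0.11 for tumors against peritumoral liver (SE 0.33, -0.85 to 0.63, adjusted p = 0.954) and 0.08 for peritumoral against wild type liver (SE 0.14, -0.23 to 0.38, adjusted p = 0.791). The 2 probe sets of Sox9 were at 5.63 and 7.55 in tumor 3, and they gave differences of opposite sign, -0.14 and 0.07, for tumors against wild type liver.

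Krt7 was at 3.50, 4.00, 5.72, 4.02 and 3.83 in tumors 1 to 5 and between 3.79 and 4.29 in all 10 arrays of peritumoral and wild type liver. Tumor 3 was the only array above 4.29, and tumor 1 was the lowest of the 15. The lowest value of any probe set on an array was 2.61 to 2.78, and whether a Krt7 value near 4 lay above background was not tested. The difference from wild type liver was 0.21 in tumors (SE 0.36, 95% interval -0.57 to 1.00, adjusted p = 0.776 in limma) and 0.00 in peritumoral liver (SE 0.11, -0.24 to 0.24, adjusted p = 0.996). Without tumor 3 the difference of tumors from wild type liver was -0.16.

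Tumor 3 was therefore the highest of 15 arrays for 4 of 6 measured markers (Epcam, Sox9, Krt7 and Cd24a), where it was the highest for 5.94% of all genes. It stood over 1 above each other tumor for 3 of 6 markers (Epcam, Krt7 and Cd24a), as it did for 1.73% of all genes. Other genes of the bile duct lining followed the same array. Of 16 measured genes of this list, 11 were highest in tumor 3 and 5 stood over 1 above each other tumor. Cftr, the chloride channel of the duct lining, was at 5.29 in tumor 3, at 3.10 to 3.23 in the other tumors and at no more than 3.40 in any other array. Pkhd1, the fibrocystin of the primary cilium that is mutated in recessive polycystic kidney and liver disease, was at 7.09 in tumor 3 and at 4.18 to 5.02 in the other tumors. Bicc1, an RNA-binding protein of tubular epithelia, was at 9.55 in tumor 3 and at 4.24 to 6.40 in the other tumors. Cldn7, a tight junction protein, was at 7.13 in tumor 3 and at 4.16 to 5.23 in the other tumors. Anxa13, an epithelial annexin, was at 10.05 in tumor 3, and also at 8.70 and 7.63 in tumors 2 and 5, against 4.41 and 5.04 in tumors 1 and 4. These genes were taken for their values in tumor 3, and this is a description of 1 array.

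The other lists were also read in tumor 3. Of 11 measured progenitor transcription factors, 1 was highest of 15 arrays there, and the list had a mean of 5.11 in tumor 3, inside the range of peritumoral (4.88 to 5.14) and wild type liver (4.95 to 5.17). Sox4, a transcription factor of early bile duct development, was this gene, at 6.55 in tumor 3 and at 5.16 to 5.31 in the other tumors. It was at 4.44 to 4.82 in peritumoral liver and 4.34 to 4.73 in wild type liver, so that every tumor lay above these arrays. Such a separation held for 1.22% of all genes against peritumoral liver and for 2.23% against wild type liver. Its difference from wild type liver was 0.98 (SE 0.25, adjusted p = 0.0954 in limma). Of 15 progenitor receptors and ligands, 5 were highest of 15 arrays in tumor 3 and 2 stood over 1 above each other tumor, and of 9 binding partners of osteopontin and Cd24 these counts were 3 and 1. Cd44, the hyaluronan receptor, was at 9.40 in tumor 3 and 5.23 to 7.49 in the other tumors, and Itga6, the laminin receptor subunit, was at 7.28 in tumor 3 and 4.24 to 5.25 in the other tumors. Itgav, an integrin subunit that binds osteopontin, was at 7.86 in tumor 3 and at 5.72 to 6.35 in the other tumors. Tumor 3 was the highest of 15 arrays for 4 of 15 Notch pathway genes and 2 of 15 Hippo pathway genes, and stood over 1 above each other tumor for 0 of either. Over all genes these shares were 5.94% and 1.73%, so that a count of 0 of 15 for the second is no contrast with the genes at large.

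Most stellate cell and fibroblast markers were also highest in tumor 3, while macrophage and endothelial markers were mixed. The 9 markers of stellate cells and fibroblasts had a mean of 7.90 in tumor 3 and 5.57 to 6.25 in the other tumors, 6.09 to 6.44 in peritumoral liver and 5.85 to 6.39 in wild type liver. Tumor 3 was the highest of 15 arrays for 6 of these 9 and over 1 above each other tumor for 5, among them Col1a1, a chain of type I collagen, at 8.21 in tumor 3 and 4.34 to 5.48 in the other tumors. The 9 macrophage markers had a mean of 7.57 in tumor 3 and 6.82 to 7.23 in the other tumors, 6.70 to 7.57 in peritumoral liver and 6.22 to 7.89 in wild type liver. Of these 9, only Mmp12, the macrophage elastase, was the highest of 15 arrays in tumor 3. It was at 7.95 there and at 5.33 to 6.03 in the other tumors. Of 6 endothelial markers, Pecam1 was highest in tumor 3, at 6.84, and at 5.94 to 6.37 in the other tumors. The 7 granulocyte markers had their lowest mean of all 15 arrays, 4.82, in tumor 3. No hepatocyte, proliferation, pancreas, T cell, B cell or erythroid marker was highest in tumor 3. The part of these other cell types in the marker values of tumor 3 was not tested.

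**Figure D3:**
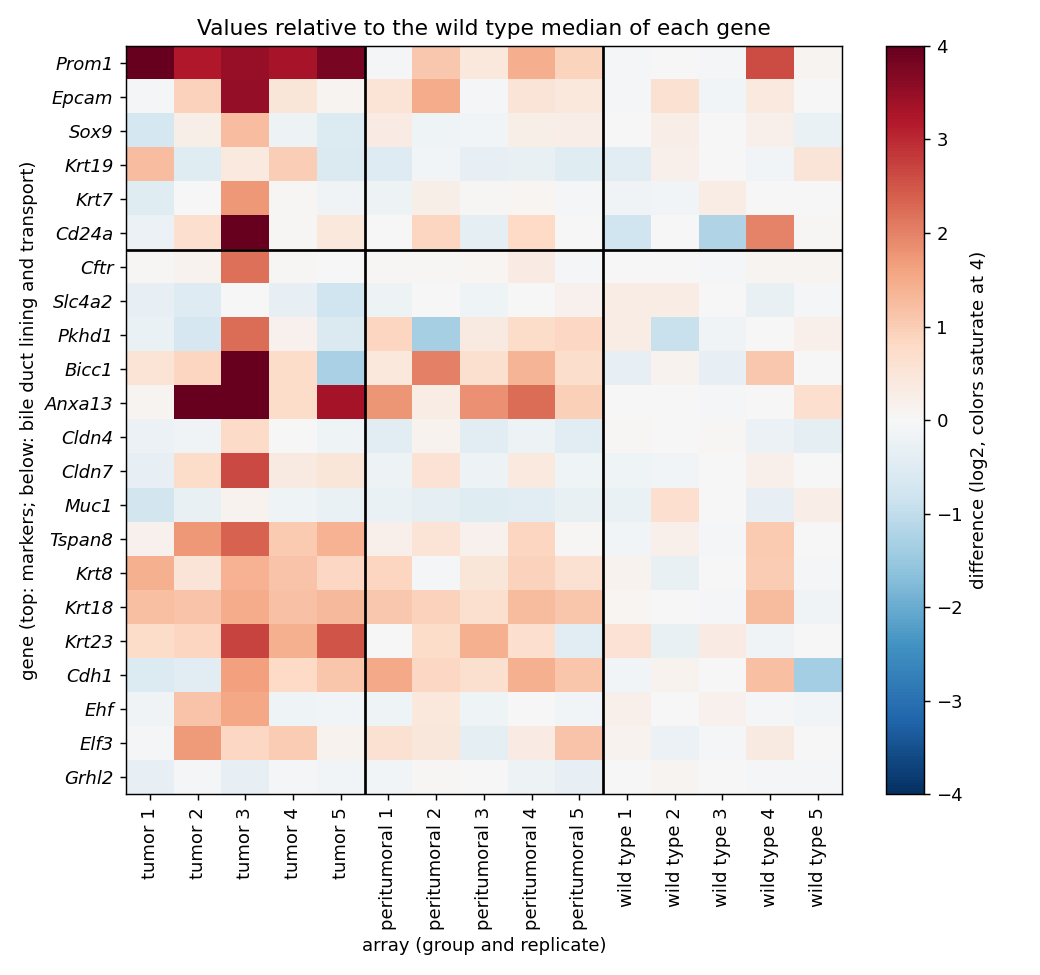
Log2 difference of each array from the median of the wild type arrays for the same gene, for the 6 measured markers (top) and 16 genes of the bile duct lining (below), with arrays in columns, tumors on the left. Colors run from blue (lower) to red (higher) and are saturated at 4, and the column of tumor 3 is red for most genes, including Cd24a, Epcam, Bicc1 and Cftr.

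Krt19 followed another pattern. It was at 6.52, 4.79, 5.67, 6.26 and 4.71 in tumors 1 to 5, at 4.75, 5.16, 4.96, 4.99 and 4.79 in peritumoral samples 1 to 5, and at 4.85, 5.47, 5.27, 5.15 and 5.79 in wild type samples 1 to 5. Tumors 1 and 4 were the highest of the 15 arrays, tumors 2 and 5 lay at the level of peritumoral liver, and tumor 3, the highest array for Epcam, Sox9, Krt7 and Cd24a, lay below wild type 5. Krt19 differed by 0.28 in tumors against wild type liver (SE 0.36, 95% interval -0.52 to 1.08, adjusted p = 0.703 in limma) and by 0.66 in tumors against peritumoral liver (SE 0.34, -0.11 to 1.42, adjusted p = 0.616). The differences between tumors and peritumoral samples of equal number were 1.76, -0.38, 0.71, 1.27 and -0.08. In peritumoral against wild type liver Krt19 was at -0.38 (SE 0.16, 95% interval -0.74 to -0.02), with an unadjusted p of 0.0419 and an adjusted p of 0.315 in limma, where 9.88% of all genes were lower at an unadjusted p under 0.05.

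Among the genes of the lists and markers, 6 others had tumors 1 and 4 as the highest arrays of the 15, as Krt19 did, and they were chosen after their values were seen. Over all genes, tumor 1 was the highest of 15 arrays for 5.3% and tumor 4 for 3.17%. The share of all genes with both as the highest arrays is not given here, so the count is only a description. Of the 6 genes, 3 were proliferation markers, with Mki67 at 6.64 and 6.44 in tumors 1 and 4, Top2a at 5.58 and 5.47 and Plk1 at 5.99 and 5.83. The other measured proliferation markers did not share this order. Cdk1, Birc5 and Ccna2 were at 8.20, 6.98 and 6.41 in tumor 5, above 7.66, 6.51 and 6.21 in tumor 4. Tumor 5 had the lowest Krt19 of the 15 arrays, at 4.71. The mean of the 6 proliferation markers was highest in tumors 1 and 4, at 6.72 and 6.35. The other 3 of the 6 genes were Lgr5, Axin2 and Tbx3. Lgr5, a Wnt-dependent receptor of pericentral hepatocytes and of epithelial stem cells, was at 8.98 and 7.43 in tumors 1 and 4, at 4.57 to 5.05 in tumors 2, 3 and 5, and at no more than 6.13 in any array of peritumoral or wild type liver. Axin2, a feedback inhibitor and target of Wnt signaling, was at 6.49 and 6.05 in tumors 1 and 4 and at 5.12 or less in all other arrays. Tbx3, a transcription factor of the fetal liver, was at 7.24 and 6.53 in tumors 1 and 4 and at 6.22 or less in all other arrays. In tumors 2, 3 and 5, Lgr5, Axin2 and Tbx3 were at 4.41 to 5.05. The part of proliferating cells in the Krt19 values was not tested.

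**Figure D4:**
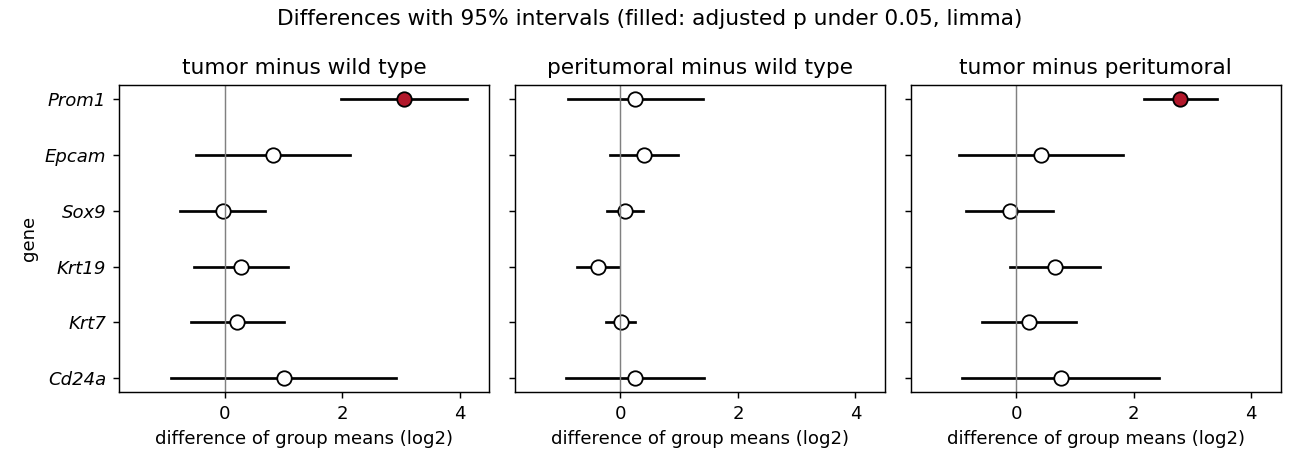
Differences of group means (log2) with 95% intervals for the 6 measured markers in tumors against wild type liver, peritumoral against wild type liver and tumors against peritumoral liver (limma, n = 5 each), filled where the adjusted p was under 0.05. Prom1 is filled at 3.05 and 2.80 in the comparisons of tumors, and no other marker is filled in any of the 3 panels.

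The wider pathways of duct and progenitor cells held no other gene that passed. In tumors against wild type liver, none of 16 bile duct lining genes, 11 progenitor transcription factors, 15 progenitor receptors and ligands, 15 Notch pathway genes, 15 Hippo pathway genes and 9 binding partners of osteopontin and Cd24 rose or fell in limma. At an unadjusted p below 0.05, 1 bile duct lining gene, 2 transcription factors, 2 receptors and ligands and 1 Notch pathway gene were lower, and 1 transcription factor, 1 receptor and 1 Hippo pathway gene were higher. Over all genes 9.96% were lower and 7.46% higher at that p. The median difference was 0.61 over the bile duct lining genes, of which 13 of 16 were above 0 and 6 exceeded 0 with an unadjusted p below 0.05. Over all 12393 genes the median was -0.05. The medians of the other lists were -0.15 for transcription factors, 0.01 for receptors and ligands, -0.02 for the Notch pathway, -0.02 for the Hippo pathway and -0.06 for the binding partners. The bile duct lining list had a mean level of 5.73 to 7.49 in tumors, 5.92 to 6.26 in peritumoral liver and 5.60 to 5.97 in wild type liver, with tumor 3 the highest and tumor 1 the lowest of the tumors. None of these genes passed in peritumoral against wild type liver or in tumors against peritumoral liver either. The median of the bile duct lining genes was 0.27 in peritumoral against wild type liver and 0.31 in tumors against peritumoral liver, with 4 higher and 1 lower, and 2 higher and 1 lower, at an unadjusted p below 0.05, and the other lists had 0 to 2 such genes in each direction. Over all genes 5.18% were higher and 9.88% lower at that p in peritumoral against wild type liver, and 4.65% higher and 4.63% lower in tumors against peritumoral liver.

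The genes with the smallest p of each list in tumors against wild type liver were as follows. Krt18, a keratin shared by hepatocytes and ducts, was at 12.10 to 12.46 in tumors, 11.60 to 12.24 in peritumoral liver and 10.84 to 12.22 in wild type liver, where only wild type 4 was above 11.04. Its difference was 1.03 (SE 0.24, adjusted p = 0.0826 in limma). Gata4, a transcription factor of endoderm and liver development, was at 4.42 to 4.84 in tumors, 4.67 to 5.10 in peritumoral liver and 4.93 to 5.13 in wild type liver, a difference of -0.40 (SE 0.10, adjusted p = 0.0826). All its tumor values were below all wild type values, as for 2.84% of all genes. Tnfrsf12a, the receptor of the progenitor mitogen TWEAK, was at 8.45 to 10.90 in tumors, 6.38 to 10.27 in peritumoral liver and 6.71 to 9.22 in wild type liver, where wild type 4 was again the highest, and differed by 2.08 (SE 0.62, adjusted p = 0.145). Wwtr1, the Hippo coactivator TAZ, differed by 0.74 (SE 0.25, adjusted p = 0.190), Notch1, a Notch receptor, by -0.45 (SE 0.18, adjusted p = 0.241) and Itgav by 0.55 (SE 0.35, adjusted p = 0.437).

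In peritumoral against wild type liver the genes with the smallest p were Wwtr1, at 7.14 to 7.59 in peritumoral liver and 6.25 to 7.12 in wild type liver, with a difference of 0.74 (SE 0.16, adjusted p = 0.110 in limma), and Anxa13, at 4.58 to 6.53 in peritumoral liver and 4.22 to 4.97 in wild type liver, with a difference of 1.29 (SE 0.33, adjusted p = 0.174). The groups did not overlap for Wwtr1, as for 1.12% of all genes in this direction, and overlapped for Anxa13. The smallest p of the other lists belonged to Fgfr2, a receptor of the progenitor growth factor Fgf7, to Rbpj, the nuclear effector of Notch, to Gata6, an endodermal transcription factor, and to Itgav, with differences of 0.25 to 0.54 and adjusted p-values of 0.237 to 0.363. In tumors against peritumoral liver, Sox4 differed by 0.86 (SE 0.25, adjusted p = 0.296 in limma) and Tspan8, a tetraspanin of ductal and gut epithelia, by 0.97 (SE 0.36, adjusted p = 0.457). Hgf, the ligand of the growth factor receptor Met, Notch1, Yap1, the Hippo coactivator, and Selp, the P-selectin that binds Cd24, had differences between -0.50 and -0.28, with adjusted p-values of 0.393 to 0.673.

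The mean of the proliferation markers, though not every single marker, separated 4 of the 5 tumors from peritumoral and wild type liver. Mki67, for example, was at 4.73 in tumor 5 and at 5.36 in peritumoral 5. The mean of the 6 measured proliferation markers was 6.72, 4.55, 5.77, 6.35 and 6.13 in tumors 1 to 5, 4.33 to 5.12 in peritumoral liver and 4.43 to 5.32 in wild type liver. All 6 markers were above 0 in tumors against wild type liver, with a median of 1.21, and none passed in limma, while 4 were higher with an unadjusted p below 0.05, as were 7.46% of all genes. Against peritumoral liver the median was 1.15, none passed, and 5 of 6 were higher at that p, as were 4.65% of all genes. Tumor 2, with a proliferation mean inside the range of wild type liver, had Prom1 at 6.99. The part of proliferating cells in the Prom1 values was not tested.

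The order of genes by likeness to Prom1 over the 15 arrays was read by Pearson's r, as a description over arrays of 3 groups that differ in Prom1 itself. The most alike were Psat1, an enzyme of serine synthesis (r = 0.921), Tax1bp3, a small PDZ domain protein (0.919), Acot9, a mitochondrial acyl-CoA thioesterase (0.918), Jpt1 (0.915), Esm1, a secreted proteoglycan of endothelium (0.913), and S100a6, a calcium-binding protein (0.912). Psat1 was at 5.89 to 7.63 in tumors, 3.55 to 4.62 in peritumoral liver and 3.40 to 3.98 in wild type liver, so that it separated tumors from all other arrays as Prom1 did. S100a6 was at 7.40 to 8.11 in tumors, 5.06 to 7.30 in peritumoral liver and 4.39 to 7.64 in wild type liver, with wild type 4 the highest of its group. In all 6 genes wild type 4 was the highest wild type array, and after the group means were taken off, r was between 0.513 and 0.895. The genes were chosen by r over the same arrays, with wild type 4 the highest wild type array for Prom1. Both observations were therefore favored by the choice. The other markers were lower in this order of 12393 genes. There were 1159 genes more like Prom1 than Cd24a, 2018 than Krt19, 2350 than Epcam, 3536 than Krt7 and 6224 than Sox9. After the group means were taken off, r with Prom1 was 0.463 for Cd24a and -0.061 to 0.051 for the others.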

How the data were processed

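RNA of 15 mouse livers or liver tumors was hybridized to Affymetrix arrays as biotin-labeled cRNA. The submitters' processing notes name GCOS 1.4 and RMA, and the authors deposited log2 values from RMA, which corrects for background, brings all arrays to 1 distribution by quantiles and gives 1 value per probe set, so that a change shared by most genes would not be seen. The genome build and the RMA version are not given in the sources used here. A second deposited table holds log2 ratios of knockout arrays to wild type, which are comparisons of the authors and were not used.

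Of 22690 probe sets (array medians 5.47 to 5.68), 20393 had 1 gene symbol in the platform annotation, 691 had several and 1606 had none. Without the 64 controls, 20380 were averaged to 12393 genes. Prom1, Epcam, Krt19 and Krt7 had 1 probe set each, Sox9 had 2 and Cd24a had 3. The number of arrays limits the precision.

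Groups were fitted 2 at a time in limma 3.58.1 (R 4.3.3), using lmFit and eBayes without covariates, and Benjamini-Hochberg adjustment ran over all genes (threshold 0.05). The fit was tested on simulated data. The labels call the knockout samples biological replicates but not the wild type samples, so p-values measure the spread between samples. Tumor and peritumoral arrays of the same number deviated together from their group means (r across genes 0.353, 0.673, 0.271, 0.308 and 0.117), which is the only basis for pairing them, and a fit blocked on the number accompanies their comparison. With wild type arrays r was -0.223 to 0.207, and those comparisons are unpaired.

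The markers and gene lists were chosen with earlier results of these data known. Named genes were the markers, the genes of each list that passed or otherwise the one with the smallest p, and the 6 genes most like Prom1, and others are marked as chosen by their values. Cell type markers served as counts and ranges. Alternatives were other probe set choices, normalizations, filters (lowest 40% of genes out) and variance models, all 3 groups in 1 fit, the replicate block and each array left out in turn. Promoters came from RefSeq (GRCm38.p6), where 3 of the 6 measured markers were matched.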

Additional observations from a re-analysis of the deposited data

Results flagged for a closer look

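Groups of 5 arrays were searched for a single array whose gap to the nearest other array was too large a share of the group's range by Dixon's criterion. Of the 18 groups tested (6 markers in 3 groups), 4 had such an array, where the criterion is set to flag about 1 in 20. The share flagged over all genes is not given here. The markers share arrays and were chosen with earlier results known, so the count is only a description. Prom1 was at 6.39 in wild type 4, while the other wild type arrays were at 3.71 to 3.90. Epcam was at 7.54 in tumor 3, while the other tumors were at 3.96 to 4.94. Krt7 was at 5.72 in tumor 3, while the other tumors were at 3.50 to 4.02. Cd24a was at 9.46 in tumor 3, while the other tumors were at 5.03 to 5.93. The last 3 rest on the same array, in which the stellate cell and fibroblast markers were also highest, and wild type 4 is the array in which the granulocyte markers were highest.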

How the results depend on the processing

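Of the single-gene differences, 312 values under an alternative kept their direction and their side of the threshold, 12 kept the direction and lost the call, 1 gained it and 26 changed sign. Prom1 in tumors against wild type liver kept its sign in all 20 alternatives (2.90 to 3.66, adjusted p 2.93e-05 to 0.150) and passed in 13, and against peritumoral liver it kept its sign in all 19 (2.59 to 3.03, adjusted p 0.00374 to 0.101) and passed in 14. The replicate block ended both calls (adjusted p 0.150 and 0.0760 in limma), and with it 0 markers passed in either comparison. Against wild type liver the number does not pair arrays (r of equal numbers -0.223 to 0.109), so the block there says nothing about paired samples. With single arrays left out, 0 to 1 markers passed in each of these comparisons. With array weights 2 markers passed in tumors against peritumoral liver, Prom1 and Krt19 (Krt19 1.26, SE 0.22, adjusted p = 0.0138 in limma). Leaving out probe sets with names ending in _a_at, _s_at or _x_at removed Prom1, Epcam and Krt7. Each of these has 1 probe set, ending in _a_at, so no count of markers was made there.

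The number of genes that passed in tumors against wild type liver was 70. It was 28 without probe sets ending in _a_at, _s_at or _x_at, 287 with all 3 groups in 1 fit and 10 with the replicate block (which is unpaired here). It was 44 with a variance trend, 1838 with array weights and 10 to 319 with single arrays left out, the last without wild type 4. In peritumoral against wild type liver it was 5, and it was 11 with the highest probe set, 12 with all 3 groups, 0 with the block (which is unpaired here), 1082 with array weights and 4 to 267 with single arrays left out. In tumors against peritumoral liver it was 2. It was 4 with the highest probe set, 0 without probe sets ending in _a_at, _s_at or _x_at, and 41 with all 3 groups. It was 1 with the replicate block, 1 without the lowest 40% of genes, 673 with array weights and 0 to 36 with single arrays left out. Further, leaving out arrays was chosen after seeing the data. Leaving out wild type 4, peritumoral 2 and tumor 2 gave 569, 958 and 40 genes in these comparisons, and leaving out wild type 4 and tumor 3 gave 391 in tumors against wild type liver.

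These signs changed, and the cause was not tested. With the highest probe set Sox9 was at 0.069 in tumors against wild type liver, -0.021 in peritumoral against wild type liver and 0.091 in tumors against peritumoral liver. Krt7 was at -0.164 in tumors against wild type liver without wild type 4 and tumor 3, and in peritumoral against wild type liver at -0.016 with arrays centered on their medians, -0.074 with array weights and -0.054 without wild type 4, peritumoral 2 and tumor 2. With single arrays left out, the ranges in tumors against wild type liver were -0.345 to 0.144 for Sox9 and -0.163 to 0.394 for Krt7. In peritumoral against wild type liver they were -0.00067 to 0.148 for Sox9, -0.0543 to 0.0726 for Krt7 and -0.0533 to 0.740 for Cd24a. In tumors against peritumoral liver they were -0.214 to 0.680 for Epcam, -0.420 to 0.0679 for Sox9, -0.165 to 0.392 for Krt7 and -0.0374 to 1.07 for Cd24a.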
